A study of Mus musculus with 2 samples.

Results

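The 10 genes described here make the prostaglandins, thromboxane and leukotrienes from arachidonic acid: Pla2g4a, Ptgs1, Ptgs2, Ptges, Hpgds, Tbxas1, Alox5, Alox5ap, Lta4h and Ltc4s. They were taken by gene symbol, and each symbol matched 1 of the 55536 gene identifiers in the deposited gene tables, of which 22028 were protein-coding. They were measured by polyA RNA-seq of bone marrow-derived macrophages from C57BL/6J mice, in a single group of 2 replicate libraries. These are primary macrophages grown out of bone marrow in culture. Per the description field of the labels, the cells of both libraries were exposed to 100 ng/ml of Lipid A, the part of bacterial lipopolysaccharide that Toll-like receptor signalling senses, for 12 h. A washout of 12 h followed, and the same dose was then given again for 300 min. The treatment field names lipoprotein A instead, and the labels do not settle which is right. Both libraries carry 1 donor identifier, and their spread may therefore understate that of separate animals or be partly technical. No untreated or singly treated sample was analysed here, so the values below are levels and no response to the treatment could be measured.

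Cytosolic phospholipase A2 cuts arachidonic acid from membrane phospholipids. Cyclooxygenases turn it into prostaglandin H2, which separate terminal enzymes convert to prostaglandin E2, prostaglandin D2, thromboxane A2 or prostacyclin. Along the other branch, 5-lipoxygenase, helped by the membrane protein FLAP, makes leukotriene A4, which is then hydrolysed to leukotriene B4 or joined to glutathione as leukotriene C4. Macrophages are a known source of both kinds of lipid, and inducible cyclooxygenase is a textbook target of Toll-like receptor signalling. The question asked of the levels was which of these products the cells held the most enzyme mRNA for. An mRNA level is not an amount of enzyme or of lipid, and neither was measured.

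The prostanoid branch was present from the phospholipase to the terminal enzymes, with Hpgds, the prostaglandin D2 synthase, the highest of the 3 terminal synthases. Outside the 10 genes, Akr1b3, whose enzyme has prostaglandin F synthase activity, had a level near or above that of Hpgds. Ptges3, the cytosolic prostaglandin E synthase gene, was at 79.2 TPM, above Ptges at 35.3 TPM. The order of the 3 is therefore not a ranking of all products. In the leukotriene branch the FLAP gene Alox5ap was the highest of all 10 genes, whereas Alox5, the 5-lipoxygenase gene itself, had 4 expected counts in replicate 1 and 0 in replicate 2. At the next step the leukotriene A4 hydrolase gene Lta4h stood far above the leukotriene C4 synthase gene Ltc4s. Of the 10 genes, 7 were at 10 TPM (a transcript abundance corrected for length and scaled to a fixed total) or more in both libraries, where 27.3% of all protein-coding genes were. The median of the 10 was 30.5 TPM, against 16.9 TPM over the 9781 protein-coding genes at 1 TPM or more in both libraries and 0.29 TPM over all protein-coding genes.

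Total expected counts over genes were 50503159 in replicate 1 and 46342331 in replicate 2. A gene with 0 counts could still be present at a low level, and 3 counts were taken as a floor, or 0.0594 and 0.0647 CPM (counts scaled to the library total). All 10 macrophage marker genes were at 10 TPM or more, with a median of 742 TPM and Lyz2, the lysozyme gene, highest at 10751 ± 649 TPM (SD, n = 2, as for all means below). A few markers of other cells differed between the libraries. The summed level of 10 neutrophil markers was 73.4 TPM in replicate 1 and 7 in replicate 2, mostly from S100a9 and S100a8. The sum of 8 platelet and megakaryocyte markers, 260 and 118 TPM, was nearly all Pf4. The sum of 6 endothelial markers, 15.7 and 49.4 TPM, was mostly Kdr at 11.0 and 41.6 TPM. Vwf was also higher in replicate 2, at 1.35 and 4.56 TPM, while Pecam1 was at 1.96 and 2.23 and Cdh5 at 1.38 and 0.87 TPM. The highest markers of the remaining lists were Cd4 at 41.5 TPM for T and NK cells, Ccr7 at 3.67 for dendritic cells, Cd79b at 2.79 for B cells, Ccr3 at 1.36 for eosinophils and Pdgfrb at 1.12 for fibroblasts. Most genes of these lists were under 1 TPM in both libraries. They were 7 of 8 T and NK cell, 6 of 7 dendritic cell, 4 of 5 B cell, 5 of 6 eosinophil and 7 of 8 fibroblast markers. Of the 10 neutrophil markers 5 were under 1 TPM in both libraries, and Ly6g had no count in either. Mmp8 was at 5.47 and 2.54 TPM and Ngp at 4.96 and 0.06 TPM. The part of these markers in the levels below was not tested.

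The start regions of the 2 cyclooxygenase genes and of Alox5 are shown here because Ptgs2 and Ptgs1 catalyse the same step at very different levels and Alox5 had almost no counts beside its partner Alox5ap. Each run is the 250 bases before the annotated start, from RefSeq windows on build GRCm38.p6, read 5′ to 3′ on the gene's own strand. Capitals mark the letter motifs found, and each motif was searched on both strands of a 300-base window that also holds 50 bases after the start. The Ptgs2 run lies at chr1:150099781-150100030 on the plus strand, the Ptgs1 run at chr2:36230176-36230425 on the plus strand, and the Alox5 run at chr6:116461179-116461428 on the minus strand.
Ptgs2: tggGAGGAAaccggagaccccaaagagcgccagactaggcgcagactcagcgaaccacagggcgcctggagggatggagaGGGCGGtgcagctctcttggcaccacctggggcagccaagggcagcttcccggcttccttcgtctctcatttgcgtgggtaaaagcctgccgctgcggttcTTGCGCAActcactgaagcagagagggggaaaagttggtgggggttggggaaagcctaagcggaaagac
Ptgs1: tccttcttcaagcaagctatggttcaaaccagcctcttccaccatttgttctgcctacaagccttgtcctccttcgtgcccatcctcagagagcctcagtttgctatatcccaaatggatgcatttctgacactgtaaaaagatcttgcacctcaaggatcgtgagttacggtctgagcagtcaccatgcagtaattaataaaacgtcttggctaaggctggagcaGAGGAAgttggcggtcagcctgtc
Alox5: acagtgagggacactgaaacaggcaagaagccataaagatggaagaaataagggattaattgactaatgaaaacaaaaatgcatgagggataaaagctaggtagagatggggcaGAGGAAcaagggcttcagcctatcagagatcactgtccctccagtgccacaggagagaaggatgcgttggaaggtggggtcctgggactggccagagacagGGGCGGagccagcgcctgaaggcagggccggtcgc

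The Ptgs2 run was 61.6% G and C, the Ptgs1 run 48.0% and the Alox5 run 52.8%, against a median of 52.4% over 32851 windows. The Ptgs2 run held TTGCNNAA, a form of the C/EBP motif, at position −69 before the start. That motif is in 10.8% of all windows. It also held the GC box GGGCGG at −170 and GAGGAA, a core of the PU.1 motif, at −247, which are in 35.7% and 28.3% of all windows. After the start, in sequence not printed here, the Ptgs2 window held the E-box CACGTG at 17, in 7.15% of windows, and TGACG at 14, in 20.8%, and these matches overlap each other. The Ptgs1 window held GAGGAA alone, at −24. The Alox5 window held GGGCGG at −35 and GAGGAA at −136. Of the other windows searched, that of Hpgds also held TTGCNNAA, at −176. Also searched were TATAAA (13.6% of windows), GGGANTTTC (1.11%) and TGANTCA (7.81%), of which none was found in the Ptgs2, Ptgs1 or Alox5 windows. These matches describe letters only, and no binding was measured.

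Pla2g4a, on chromosome 1 at 149829618 to 149961290 of build mm10, encodes the cytosolic phospholipase A2 that releases arachidonic acid. It had 2649 expected counts in replicate 1 and 1823 in replicate 2. Its level was 29.8 and 21.5 TPM, or 25.7 ± 5.89 TPM, above 60.8% of protein-coding genes at 1 TPM or more. The coding transcript Pla2g4a-201 held 96.1% of this level. The deposited intervals of the estimates, 27.8 to 33.8 TPM and 20.4 to 25.0 TPM, did not overlap, so the libraries differed by more than the uncertainty of the estimate. In bulk RNA a lower level can come from fewer cells that express the gene or from less RNA per cell, and these cannot be told apart.

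**Figure D1:**
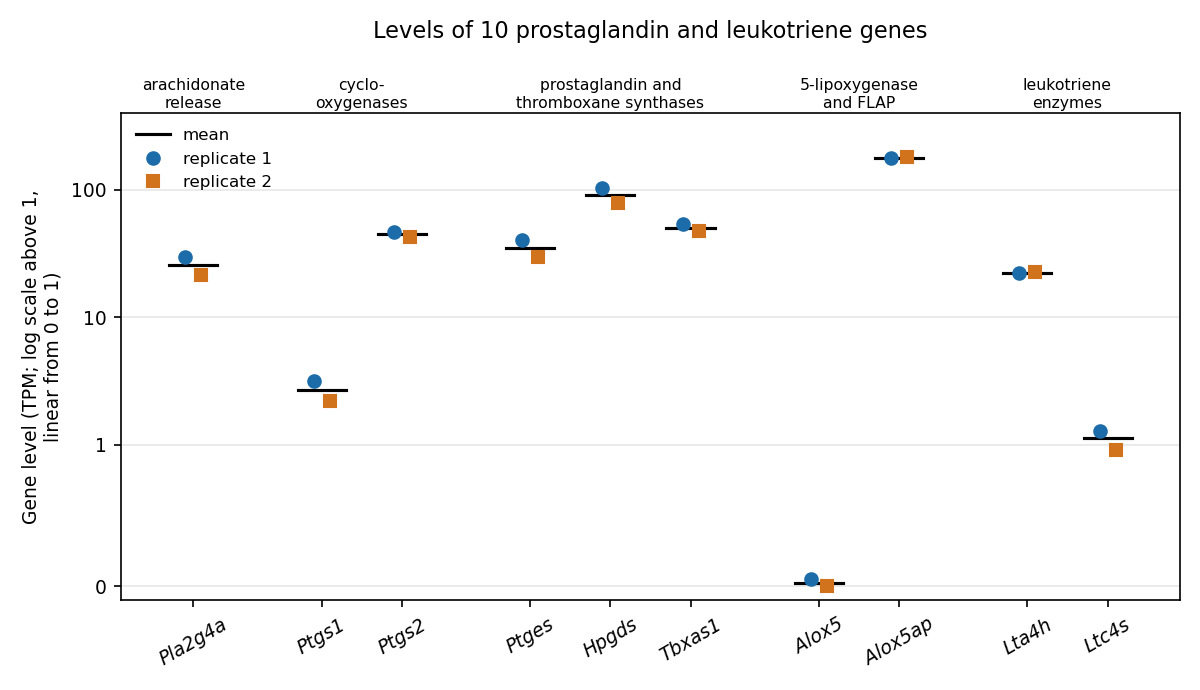
Gene level in TPM of the 10 genes, grouped by step of the pathway, on an axis that is logarithmic above 1 TPM and linear from 0 to 1; the circle is replicate 1, the square replicate 2 and the bar their mean. Alox5ap stands highest at 178 and 181 TPM, and Alox5 lies at 0.05 and 0 TPM.

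Ptgs1 and Ptgs2 encode the 2 cyclooxygenases, the first usually constitutive and the second inducible. Ptgs2, at 150100031 to 150108227 on chromosome 1, was at 46.5 and 42.9 TPM, or 44.7 ± 2.57 TPM, from 7077 and 5958 counts. All of this was assigned to the coding transcript Ptgs2-201. Ptgs1, at 36230426 to 36252272 on chromosome 2, was at 3.16 and 2.21 TPM, or 2.69 ± 0.672 TPM, from 299 and 180 counts. The level of Ptgs2 was thus 14.7 times that of Ptgs1 in replicate 1 and 19.4 times in replicate 2. On the log2(TPM + 1) scale the difference was 3.64 ± 0.18, many times the spread between the libraries. The deposited intervals of Ptgs1 reached 3.81 TPM at most and those of Ptgs2 began at 40.7 TPM. Ptgs1 was above 9.13% of protein-coding genes at 1 TPM or more, and Ptgs2 above 73.5%. Pla2g4a, which acts before the cyclooxygenases, differed from Ptgs2 by −0.79 ± 0.24 on the log2(TPM + 1) scale.

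Hpgds, Tbxas1 and Ptges encode enzymes that act on the product of the cyclooxygenases. Hpgds, the hematopoietic prostaglandin D synthase, was at 103 and 78.7 TPM, or 91.1 ± 17.5 TPM. Tbxas1, thromboxane A synthase, was at 53.9 and 47.2 TPM, or 50.6 ± 4.74 TPM, and lies at 38875404 to 39084585 on chromosome 6. Ptges, the inducible membrane-bound prostaglandin E synthase, was at 40.6 and 29.9 TPM, or 35.3 ± 7.58 TPM, and lies at 30889471 to 30929863 on chromosome 2. By these levels the order Hpgds, Tbxas1, Ptges held in each library, and no library of one gene overlapped a library of another. Summed, the 3 synthases came to 198 TPM in replicate 1 and 156 TPM in replicate 2, against 49.7 and 45.1 TPM for the 2 cyclooxygenases.

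As shares of that sum, Hpgds held 52.2% and 50.5%, Tbxas1 27.2% and 30.3%, and Ptges 20.5% and 19.2%. The mean shares were 51.4 ± 1.23% for Hpgds, 28.8 ± 2.17% for Tbxas1 and 19.9 ± 0.937% for Ptges. On the log2(TPM + 1) scale Ptges lay below Hpgds (a difference of −1.35 ± 0.03), Tbxas1 below Hpgds (−0.83 ± 0.14) and Ptges below Tbxas1 (−0.52 ± 0.17). Each difference exceeded the spread between the libraries. The mRNA of the prostaglandin D2 enzyme was therefore the most abundant of the 3, followed by that of the thromboxane enzyme and that of the inducible prostaglandin E2 enzyme. Ptgis, the prostacyclin synthase gene, and Ptgds, the other prostaglandin D synthase gene, had 0 counts in both libraries in the gene tables that give all levels so far, called the first quantification.

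The size of the Hpgds lead depended on which transcripts were counted. Hpgds, on the minus strand at 65117293 to 65144908 of chromosome 6, has 3 annotated transcripts. The coding transcript Hpgds-201, of 3476 nt, held 64.0 ± 3.06% of the gene's TPM. Hpgds-202, a 420-nt transcript with a retained intron and no coding annotation, held 29.3 ± 0.851%. In a second deposited quantification, made from the reads directly, Hpgds-202 held 46.2 ± 0.468% and Hpgds-201 47.8 ± 1.24%. Short transcripts weigh heavily per length: the 31.0 TPM of Hpgds-202 in replicate 1 came from 185 of 8770 counts. Hpgds-202 runs on past an exon end of Hpgds-201 and ends 110 bases into the intron, at chr6:65131980-65132089 on the minus strand of mm10. These bases, from the GENCODE M21 transcript, are printed because they set Hpgds-202 apart from the spliced form, with the donor GT in capitals.
Hpgds-202 intronic end: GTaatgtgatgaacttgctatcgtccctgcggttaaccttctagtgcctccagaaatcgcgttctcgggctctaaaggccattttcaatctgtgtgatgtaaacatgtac

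With coding transcripts alone, Hpgds was at 63.9 and 52.0 TPM, Tbxas1 at 49.6 and 44.4 TPM, and Ptges close to its total. The shares were then 41.4% for Hpgds, 33.7% for Tbxas1 and 24.8% for Ptges. With the second quantification they were 56.7%, 24.2% and 19.2%. There the libraries of Tbxas1 and Ptges overlapped, since Ptges in replicate 1, at 48.1 TPM, was above Tbxas1 in replicate 2, at 47.2 TPM. Short transcripts also weigh on the coding level of Tbxas1. Of it, 7.22 and 7.15 TPM came from the 403-nt Tbxas1-203, with 39 and 36 counts. The longer Tbxas1-201 alone was at 42.25 and 37.23 TPM, against 40.16 and 29.73 TPM for Ptges-202. Hpgds was highest and Ptges lowest in the mean of the libraries each way, while the difference of Tbxas1 from Hpgds ranged from −0.29 to −1.22 on the log2(TPM + 1) scale. Hpgds overlaps the pseudogene Gm17147 on the opposite strand, which had 43 and 27 counts, and Tbxas1 overlaps Hipk2 on the opposite strand. How the counting used strand is not stated, and reads of these overlapping genes may have been mixed.

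**Figure D2:**
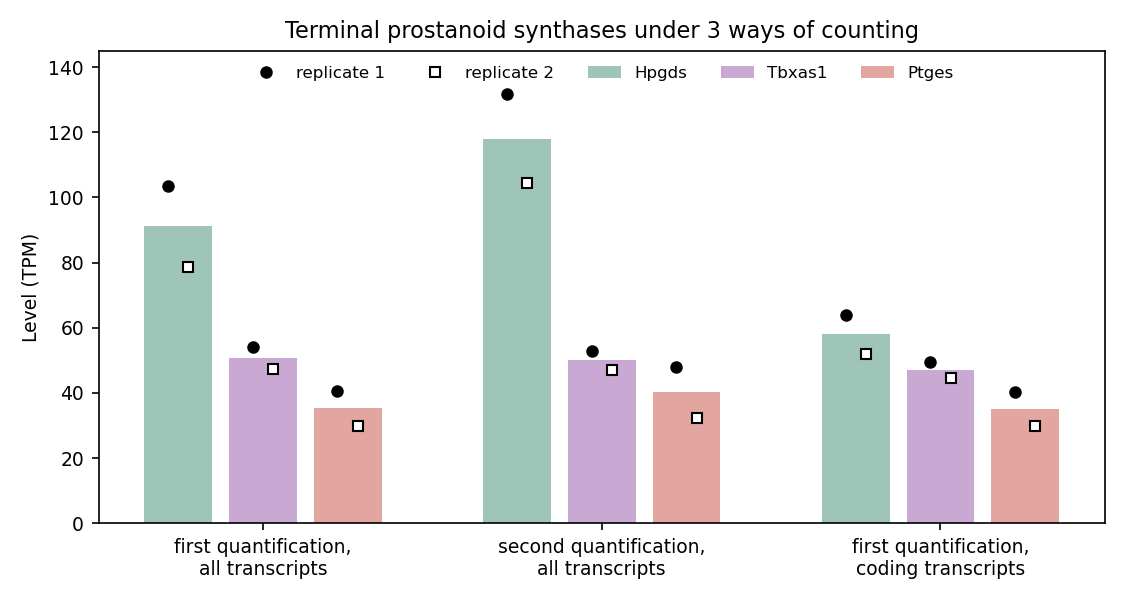
Level in TPM of Hpgds, Tbxas1 and Ptges by 3 ways of counting; bars are means of 2 libraries, filled circles replicate 1 and open squares replicate 2. Hpgds is highest each way, at 91.1, 118 and 58.0 TPM.

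Ptges and Alox5ap also had noncoding transcripts that the quantifications treated differently. Ptges-202, which is coding, held 99.1 ± 0.399% of Ptges TPM in the first quantification and 80.4 ± 6.58% in the second. Alox5ap-201, which is coding, held 82.2 ± 3.99% in the first and 100.0% in the second. The leading transcript of each of the 10 genes was the same in both.

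Alox5 and Alox5ap make up the first step of leukotriene synthesis. Alox5ap, at 149264767 to 149288153 on chromosome 5, encodes FLAP, which presents arachidonic acid to 5-lipoxygenase. It was at 178 and 181 TPM, or 179 ± 2.15 TPM, from 5632 and 5011 counts, above 92.0% of protein-coding genes at 1 TPM or more. Alox5, at 116410077 to 116461178 on chromosome 6, was at 0.05 TPM in replicate 1, from 4 counts, and at 0 TPM in replicate 2. Those 4 counts are 0.0792 CPM, with an exact 95% Clopper-Pearson interval of 0.0216 to 0.203 CPM. For the 0 counts the exact upper limit is 0.0796 CPM, above the floor of 0.0647 CPM. Such intervals and limits cover counting error only.

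Per length, Alox5ap was 4120-fold higher than Alox5 in replicate 1, with a counting interval of 1609 to 15120. In replicate 2 it was 5107-fold higher with Alox5 set at a floor of 3 counts in that library. That floor is a different rule from the interval of replicate 1 and lies below the exact upper limit, so 5107 is not a lower bound. The deposited posterior estimates are less extreme, since they allow Alox5 up to 0.600 TPM in replicate 1 and 0.565 TPM in replicate 2. At those upper bounds Alox5ap was still 296 and 319 times as high. The second quantification also placed Alox5 at 0.0566 and 0 TPM. Alox5 was the 1 gene of the 10 that did not pass the filter on low counts.

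Lta4h encodes leukotriene A4 hydrolase, which makes leukotriene B4, and Ltc4s encodes leukotriene C4 synthase. Lta4h, at 93453411 to 93484875 on chromosome 10, was at 22.1 and 22.5 TPM, or 22.3 ± 0.276 TPM, from 1262 and 1204 counts. Ltc4s, at 50236461 to 50238616 on chromosome 11, was at 1.29 and 0.96 TPM, or 1.13 ± 0.233 TPM, from 18 and 11 counts. The level of Lta4h was 17.2 and 23.5 times that of Ltc4s. The log2(TPM + 1) difference was 3.46 ± 0.18, beyond the spread between the libraries. Ltc4s was above 0.235% of protein-coding genes at 1 TPM or more, near the lower edge of that set. Of these 2 genes, most mRNA was thus that of Lta4h, in cells with few or no counts of the gene whose enzyme makes leukotriene A4. Other genes listed under leukotriene conversion were not counted in this. Among them were the microsomal glutathione transferase genes Mgst1, Mgst2 and Mgst3, at 89.1, 2.85 and 4.87 TPM. Mgst2 and Mgst3 were named after their values were seen.

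Known sources of Alox5 and Ltc4s mRNA include granulocytes and mast cells. Of 10 mast cell and basophil markers 9 were under 1 TPM in both libraries, and 5, namely Fcer1a, Ms4a2, Mcpt4, Tpsb2 and Cma1, had no read. The exception was Hdc, the histidine decarboxylase gene, at 10.4 and 19.9 TPM, which brought the list's sum to 10.9 and 20.6 TPM. The neutrophil marker S100a9 was at 37.9 and 2.23 TPM and the platelet marker Pf4 at 256 and 116 TPM. Thromboxane synthase is abundant in platelets, and 6 of the 8 platelet markers were under 1 TPM in both libraries. Besides Pf4, Ppbp was at 3.34 and 0.7 TPM. Of the 4 platelet markers that passed the filter, 3 were 2-fold or more apart between the libraries, against 4.21% of all genes kept. The part of such cells in Tbxas1 and Alox5 levels was not tested.

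Set in order of level, the genes ran Alox5ap, Hpgds, Tbxas1, Ptgs2, Ptges, Pla2g4a, Lta4h, Ptgs1, Ltc4s and Alox5. In the first quantification the ranges of the 2 libraries overlapped for only 1 pair of neighbours, Pla2g4a and Lta4h, which exchanged places in replicate 2. All 11 differences computed between pairs of these genes had the same sign in both libraries. Ptges lay below Ptgs2, with a difference of −0.35 ± 0.22 on the log2(TPM + 1) scale, but in the second quantification Ptges was the higher in replicate 1, at 48.1 against 44.5 TPM.

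Between the libraries, 8 of the 9 genes that passed the filter had lower scaled counts in replicate 2, and the median log2 ratio of replicate 2 to replicate 1 was −0.39, against 0.000355 over all 12543 genes kept. The lowest ratios were those of Ptgs1 at −0.61, Ltc4s at −0.57, Ptges at −0.45 and Pla2g4a at −0.42. Hpgds was at −0.39, Tbxas1 at −0.24 and Ptgs2 at −0.13. The leukotriene genes Alox5ap, at −0.05, and Lta4h, at 0.05, had 95% counting intervals that took in 0, as did Ltc4s, from −1.82 to 0.57. In TPM, Alox5ap and Lta4h were both slightly higher in replicate 2. None of the 9 was 2-fold or more apart, where 4.21% of all genes kept were. These are differences between 2 libraries of 1 group and say nothing of the treatment.

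**Figure D3:**
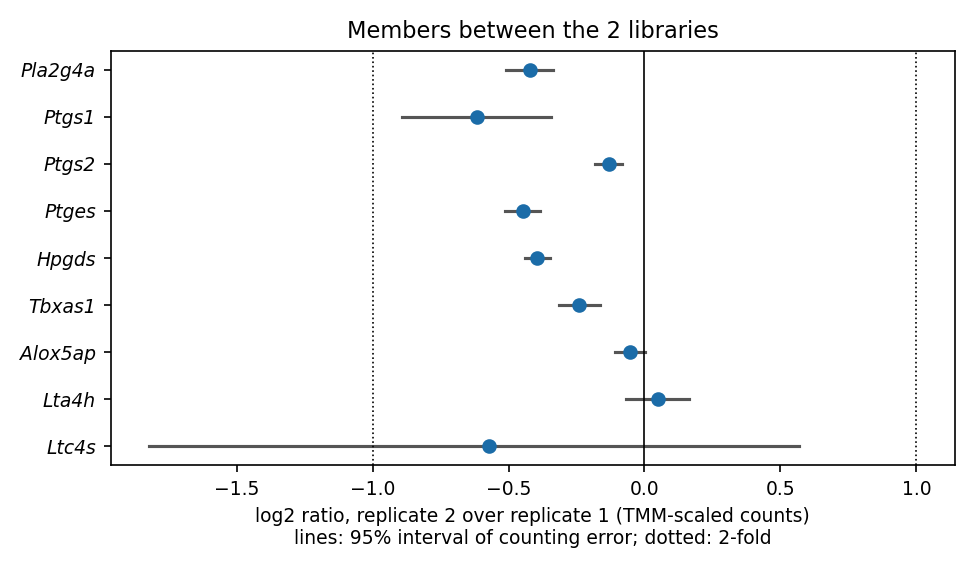
Log2 ratio of TMM-scaled counts, replicate 2 over replicate 1, for the 9 genes that passed the filter on low counts, with lines for the 95% interval of counting error and dotted lines at a 2-fold difference. The genes from Pla2g4a to Tbxas1 lie below 0, from −0.13 to −0.61, and Alox5ap and Lta4h lie at −0.05 and 0.05.

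Around these genes, 73 others in 8 lists cover the supply of arachidonic acid, the remaining enzymes, transport and receptors. Of the 73, 27 were at 10 TPM or more in both libraries, where 27.3% of all protein-coding genes were. The same 27.3% is the share to set beside the counts of each list below. At 1 TPM or more in both were 43 of the 73 and 9781 of the 22028 protein-coding genes. Under 1 TPM in both were 28 of the 73, and 13 had no count in either, with no share over all genes at hand. Those zeros are of the first quantification: the second placed Ptgds, Slco2a1, Ltb4r2 and Alox8 above 0 but at no more than 0.0794 TPM, and Dpep1 higher. Among 10 genes that build arachidonic acid or return it to phospholipids, 7 were at 10 TPM or more, led by the acyl-CoA synthetase gene Acsl1 at 176 ± 39.3 TPM. The lysophospholipid acyltransferase gene Lpcat2 was at 65.6 TPM and the fatty acid desaturase gene Fads1 at 47.8 TPM, followed by the acyltransferase gene Lpcat3 at 32.7, the acyl-CoA synthetase gene Acsl4 at 31.2, the elongase gene Elovl5 at 29.6 and the acyltransferase gene Mboat7 at 15.2 TPM. The elongase gene Elovl2 was lowest at 0.225 TPM.

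Of 17 phospholipase and release genes, 6 were at 10 TPM or more. The phospholipase A2 inhibitor annexin A1, Anxa1, was highest at 469 ± 102 TPM, with S100a10, the partner protein of annexin A2, at 153 TPM. Pla2g7, which hydrolyses platelet-activating factor, was at 58.7 TPM, the lysosomal phospholipase gene Pla2g15 at 50.4, the phospholipase A2-activating protein gene Plaa at 43.4 and the triglyceride lipase gene Pnpla2 at 29.5 TPM. Pla2g4f, a relative of Pla2g4a, was lowest at 0.045 TPM.

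The other terminal prostaglandin genes held 5 of 7 at 10 TPM or more. Akr1b3, an aldose reductase with prostaglandin F synthase activity, was at 120 ± 12.8 TPM, and Prxl2b, given in the tables as Fam213b and likewise linked to prostaglandin F, at 87.9 ± 33.6 TPM. Akr1b3 was thus above Hpgds, at 91.1 ± 17.5 TPM, but below it in the second quantification, at 109 against 118 TPM. Ptges3, the cytosolic prostaglandin E synthase and a cochaperone, was at 79.2 TPM, above inducible Ptges at 35.3 TPM, and Ptges2 was at 13.6 TPM. The carbonyl reductase gene Cbr1 was at 16.9 TPM. Of the transport and breakdown genes, the prostaglandin reductases Ptgr2 and Ptgr1 were at 19.9 and 12.1 TPM. Hpgd, which starts the breakdown of prostaglandins, and the uptake carrier gene Slco2a1 had 0 counts in both libraries.

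**Figure D4:**
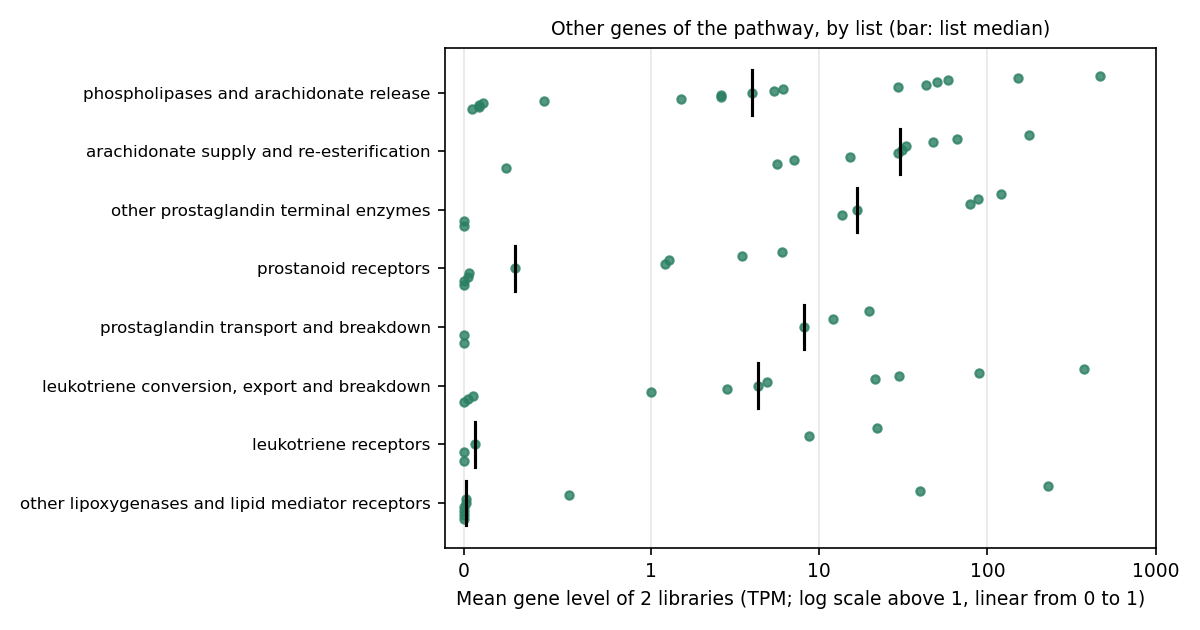
Mean level in TPM over 2 libraries of the 73 other pathway genes, 1 point per gene in 8 lists, on an axis that is logarithmic above 1 TPM and linear from 0 to 1, with a bar at each list's median. The supply genes have the highest list median, 30.4 TPM, and none of the prostanoid receptors reaches 10 TPM.

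Receptors for these lipids were low for the prostanoids and split for the leukotrienes. None of 9 prostanoid receptors was at 10 TPM or more in both libraries, and the highest was the prostaglandin E2 receptor gene Ptger4 at 5.99 ± 1.91 TPM. Ptgdr and Ptgfr, receptor genes for prostaglandins D2 and F2α, had no count. Ptgdr2, a further prostaglandin D2 receptor gene, had 4 and 1 counts and was named after its values were seen. Of 5 leukotriene receptors, the cysteinyl leukotriene receptor gene Cysltr2 was at 22.0 ± 3.20 TPM, while Ltb4r2 and Oxgr1 had no count. Cysltr1, at 10.4 and 7.02 TPM, and the leukotriene B4 receptor gene Ltb4r1, with 5 and 0 counts, were named after their values were seen.

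The leukotriene conversion and export list held 4 of 11 genes at 10 TPM or more. Cotl1, a coactosin-like protein that binds 5-lipoxygenase, was at 377 ± 75.2 TPM, the microsomal glutathione transferase gene Mgst1 at 89.1 TPM, the dipeptidase gene Dpep2 at 29.7 TPM and the exporter gene Abcc1 at 21.5 TPM. The dipeptidase gene Dpep1 had no count in the first quantification and 0.622 and 0.393 TPM in the second. Among 9 other lipoxygenases and lipid mediator receptors, the 2 at 10 TPM or more were the receptors Fpr2, at 229 ± 32.6 TPM, and Cmklr1, at 54.6 and 25.3 TPM. Alox15, Alox12b, Alox12e and Alox8 had no count in either library, and Alox12 was at 0.82 and 0.31 TPM.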

How the data were processed

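PolyA RNA-seq of 1 group of 2 libraries was analysed, and no p-value was computed. Per the file headers, the authors deposited expected counts, TPM and FPKM per gene and per transcript, with posterior mean values and interval bounds of other kinds (the first quantification). Per the deposited README, the build was mm10 with GENCODE M21, and a further table of estimated counts and TPM (the second quantification) was made from the reads directly. For tools, their versions and strand handling: not given in the sources used here. RSEM and kallisto write tables with these columns. The depth was 50503159 and 46342331 expected counts, so that 3 counts equal 0.0594 and 0.0647 CPM.

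Levels are deposited TPM, and differences between genes use log2(TPM + 1). Expected counts were rounded, filtered with filterByExpr and scaled by TMM in edgeR 4.0.16 (R 4.3.3, prior count 0.5), or by DESeq2 1.42.0 size factors as an alternative. SciPy 1.17.1, NumPy 2.4.6 and pandas 2.3.3 under Python 3.11.15 did the rest, with matplotlib 3.10.9 for plots. The ratio script was tested on simulated data. The libraries differed beyond sampling noise (chi-square per degree of freedom 69.8 over 14305 genes) and were counted as 2 samples. The members and lists were chosen with earlier results of these data known. Named were the 10 members, each list gene at 10 TPM or more in both libraries, and each list's highest and lowest gene. Of each marker list the highest gene was named, and other markers named were chosen after their values were seen. Promoters of 9 of the 10 members came from RefSeq (GRCm38.p6). Alternatives were the second quantification, FPKM, the posterior mean, other pseudocounts, filters, scalings and prior counts, and leaving out a library.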

Additional observations from a re-analysis of the deposited data

How the results depend on the processing

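No mean difference between genes and no ratio between libraries changed sign under the alternatives tried, but in replicate 1 alone Ptges, below Ptgs2 in the first quantification, was above it in the second, at 48.1 against 44.5 TPM. The depth limits Alox5 and Ltc4s most, with 4 and 0 and with 18 and 11 counts. With a pseudocount of 0.1 TPM the log2 difference of Ptgs2 from Ptgs1 became 4.03, that of Alox5ap from Alox5 10.51 and that of Lta4h from Ltc4s 4.21. With the second quantification Ptges lay at −0.33 ± 0.28 from Tbxas1 and −1.55 from Hpgds, and Tbxas1 at −1.22 from Hpgds. Alox5ap lay there at 7.13 from Alox5, and the synthase shares were 56.7% for Hpgds and 24.2% for Tbxas1. With FPKM, Alox5ap lay at 6.99 from Alox5 and Lta4h at 3.24 from Ltc4s. With the posterior mean these became 7.07 and 3.10, and Ptges lay at −1.30 from Hpgds. The use of coding transcripts for differences and shares, and all other alternatives to the synthase shares, were chosen after seeing the data. Coding transcripts gave −0.72 for Ptges from Hpgds, −0.29 for Tbxas1 from Hpgds, 7.18 for Alox5ap from Alox5 and 3.28 for Lta4h from Ltc4s, with shares of 24.8% for Ptges, 41.4% for Hpgds and 33.7% for Tbxas1. Of all genes, 528 were 2-fold or more apart between the libraries, 5481 with no filter and 194 at a mean of 100 counts or more. Of those 528, 289 were higher in replicate 2 and 239 lower. The split was 129 and 65 at a mean of 100 counts or more, 2195 and 3286 with no filter, and 314 and 412 with the second quantification. The cause of these shifts was not tested, save that the filters change how many genes are counted. No paired analysis was possible because the series holds 1 group.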

Other observations

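Of the 73 other pathway genes, 49 passed the filter on low counts and 4 of these (8.16%) were 2-fold or more apart between the libraries, against 4.21% of all genes kept. They were named for this difference, after their values were seen. The desaturase gene Fads2 had a log2 ratio of replicate 2 to replicate 1 of 1.57, and the prostaglandin E receptor gene Ptger3 was likewise higher in replicate 2. The receptor gene Cmklr1, at 54.6 and 25.3 TPM, and the platelet-type lipoxygenase gene Alox12, at 0.82 and 0.31 TPM, were lower in replicate 2. The platelet marker Pf4 was at 256 and 116 TPM, and its part in the Alox12 level was not tested.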
